A study of Mus musculus with 4 samples.

Results

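The genes described here are 10 components of Notch signalling and of the somite segmentation clock: the receptors Notch1 and Notch2, the ligands Dll1 and Dll3, the glycosyltransferase Lfng, and the transcriptional repressors Hes1, Hes6, Hes7, Hey1 and Hey2. They were taken by symbol from a table of 51826 genes, in which all 10 were found once. RNA sequencing values came from mouse embryonic stem cells of C57BL/6 background that had been taken off feeder cells, given 10 ng/ml of BMP4 over 2 days, moved to medium with 1 uM CHIR99021, an inhibitor of GSK3, and 0.5% DMSO, and collected at day 3 as mesoderm-like cells. There were 2 wild-type libraries and 2 libraries of Stk40-/- cells, which lack a pseudokinase gene, and both genotypes went through the same differentiation. The sources used here do not say how many clones or cultures the libraries represent, so each genotype may be 1 line, and the p-values reflect the spread among these libraries alone, which may be technical. The values are TPM, abundances normalised to the length of each transcript, so that levels of different genes can be compared. They carry no sequencing depth.

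Notch receptors are cut after they bind a ligand on a neighbouring cell, and the released intracellular part joins the DNA-binding protein RBPJ to switch on targets such as the Hes and Hey genes. In the presomitic mesoderm of the embryo this pathway, together with Wnt and Fgf signalling, drives a cycle of expression that sets the rhythm of somite formation. Hes7, Lfng and Dll1 are among its cycling parts, and Dll3 acts inside the same cells. An average over a culture cannot show such cycles.

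The labels were checked first. Stk40 averaged 34.4 ± 7.72 TPM in wild type against 3.35 ± 0.263 TPM without Stk40 (SD, n = 2). Of 11 mesoderm markers, Mesp1, Pdgfra and Kdr lay below 1 TPM in every library, and the summed level of all 11 was 1258 and 640 TPM in wild type against 416 and 267 TPM in Stk40-/- cells. Wild-type library 1 stood apart from library 2 in these markers. T, the brachyury factor of the primitive streak, measured 1025 TPM in library 1 and 535 TPM in library 2. The presomitic factor Msgn1 measured 90.6 and 7.22 TPM in the same order. For the tested genes among those described, differences are given without this library where it moves them by over 1.5 times or changes whether the groups overlap. Differences of other genes are given with all libraries unless stated. Of 16 presomitic and somite factors, 8 lay below 1 TPM in every library. Tbx6, which specifies presomitic mesoderm, had its highest value in wild-type library 1, at 2.33 TPM, and was at most 0.661 TPM in the other libraries. Mesp2, which places the somite boundary, ranged from 0.602 to 1.61 TPM, and Ripply2, which ends its activity, was listed at 0 in all 4 libraries. Others of the 16 were expressed, among them Tcf15, a bHLH factor of the epithelial somite, at 11.9 to 24.1 TPM, and the ephrin receptor gene Epha4, named after its values were seen, at 4.92 to 7.14 TPM.

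The start regions of 3 of the genes, Lfng, Hes7 and Hey2, are shown because they hold the letters recognised by RBPJ. The groups did not overlap for Lfng but did for Hes7 and Hey2. On the deposited scale they also did not overlap for Notch1, Notch2, Dll3 and Hes6, whose promoters lacked these letters. RefSeq promoters on GRCm38.p6, from 250 bases before to 50 after each annotated start, were at hand for 8 of the 10 genes (10 promoters). Hes1 and Hey1 had no entry. The letters GTGGGAA, read on both strands, occurred in the promoters of Lfng (chr5:140607091-140607390, plus strand), Hes7 (chr11:69120203-69120502, plus strand) and Hey2 (chr10:30842734-30843033, minus strand), and in 6.38% of all 32851 promoters in the table. Capitals mark these letters or their reverse complement.
Lfng: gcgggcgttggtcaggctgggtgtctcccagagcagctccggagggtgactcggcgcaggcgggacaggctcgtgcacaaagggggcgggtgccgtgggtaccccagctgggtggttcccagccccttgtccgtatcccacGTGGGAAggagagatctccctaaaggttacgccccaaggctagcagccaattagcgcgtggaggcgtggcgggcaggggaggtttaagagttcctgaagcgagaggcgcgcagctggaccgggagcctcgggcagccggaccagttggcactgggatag
Hes7: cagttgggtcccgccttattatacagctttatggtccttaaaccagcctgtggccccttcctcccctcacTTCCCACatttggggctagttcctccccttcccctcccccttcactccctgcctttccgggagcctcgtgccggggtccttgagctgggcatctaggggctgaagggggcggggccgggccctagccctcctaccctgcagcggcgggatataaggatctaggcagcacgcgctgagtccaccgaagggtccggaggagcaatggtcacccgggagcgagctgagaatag
Hey2: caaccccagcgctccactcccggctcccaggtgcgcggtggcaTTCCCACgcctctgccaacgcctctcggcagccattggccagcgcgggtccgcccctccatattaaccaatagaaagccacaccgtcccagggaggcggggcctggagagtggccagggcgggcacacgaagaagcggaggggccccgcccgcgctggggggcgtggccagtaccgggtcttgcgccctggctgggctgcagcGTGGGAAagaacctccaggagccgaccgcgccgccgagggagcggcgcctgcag
In Lfng the match began 109 bases before the start and shared 3 bases with an E-box, CACGTG, which 7.15% of all promoters held and no other promoter of these genes did. Hes7 had its match 180 bases before the start, on the opposite strand. Hey2 had 1 match 207 bases and another 4 bases before the start. The class C site of Hes repressors, CACGCG, was found in Notch2, Dll1, Lfng and Hes7 (4 of the 10 promoters, beside 9.27% of all promoters). The N box, CACNAG, was found in 6 of the 8 genes (6 of the 10 promoters, beside 42.5% of all promoters). Neither the T-box letters AGGTGTNA (3.03% of all promoters) nor the LEF/TCF letters CTTTGAT (3.73%) occurred in any of the 10 promoters. A match of letters is a description of the sequence and not a binding site.

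Across the 15739 genes whose mean reached 1 TPM, limma with Benjamini-Hochberg adjustment called 0 genes higher and 0 lower in Stk40-/- cells at an adjusted p under 0.05 (0% in each direction), and 1730 (11.0%) had an unadjusted p under 0.05. None of the Notch genes was therefore called. Nor was Stk40, the gene these cells lack, at a log2 fold change of -3.01 (limma adjusted p = 0.139). A gene that was not called may thus still differ, and the differences below are descriptions. Of the 10, 8 were tested, and Hes7 and Hey2 lay below 1 TPM in all 4 libraries. In 4 of the 8 the Stk40-/- libraries were both above the wild-type pair (Lfng, Hes6, Notch2, Hey1), in 2 they lay below (Notch1, Dll3), and in 2 the groups overlapped (Dll1, Hes1). Over all tested genes, 27.5% lay above and 16.6% below without overlap. The groups of Notch2 overlapped after median-ratio scaling and after quantile normalization, and the other 5 kept their separation under both. The median log2 fold change of the 8 was 0.08, beside 0.07 over all genes tested.

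**Figure D1:**
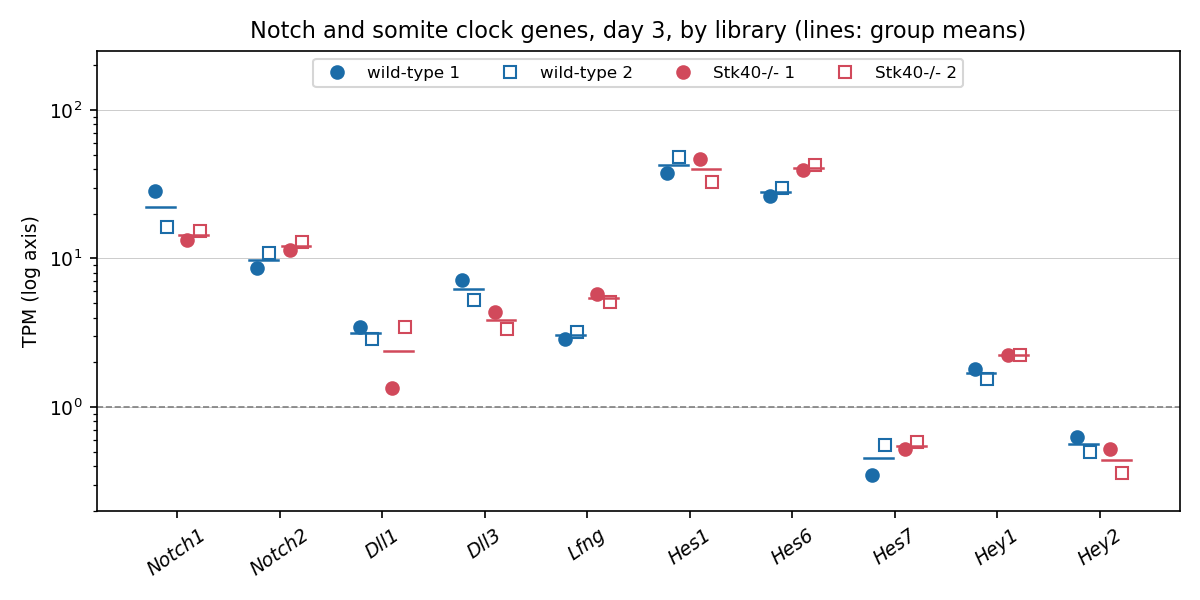
TPM of the 10 genes on a log axis in each library, with filled circles for replicate 1, open squares for replicate 2, blue for wild type, red for Stk40-/- cells and short lines at group means. Hes1, Hes6 and Notch1 were the most abundant, Hes7 and Hey2 lay below the dashed line at 1 TPM, and the colours separate in Lfng and Hes6 but mix in Hes1 and Dll1.

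The order of the levels was much the same in both groups. In wild type it ran from Hes1 (42.8 TPM) through Hes6 (28.0), Notch1 (22.2), Notch2 (9.73), Dll3 (6.19), Dll1 (3.17), Lfng (3.05) and Hey1 (1.68) to Hey2 (0.562) and Hes7 (0.453). Hes6 and Notch1, Dll1 and Lfng, and Hey2 and Hes7 were neighbours whose ranges over the 2 libraries overlapped. In Stk40-/- cells Hes6 (40.8 TPM) stood beside Hes1 (39.9 TPM) with overlapping ranges. Lfng, at 5.41 TPM there, stood above Dll3 at 3.86 TPM, with no overlap, whereas in wild type it stood below Dll3 without overlap.

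Among the receptors, Notch1 lay lower and Notch2 slightly higher in Stk40-/- cells, neither past the threshold. Notch1 (ENSMUSG00000026923.15; GRCm38 chromosome 2, 26457903 to 26516663, minus strand), the receptor needed for orderly somite formation in the mouse embryo, measured 28.2 and 16.2 TPM in the wild-type pair of libraries against 13.3 and 15.2 TPM in the Stk40-/- pair. Wild-type library 1 was far above the other 3 libraries, and library 2 was only just above the Stk40-/- libraries. Its log2 fold change on the log2(TPM + 1) scale was -0.56 (SE 0.29, 95% interval -1.35 to 0.24, limma adjusted p = 0.557). Leaving out wild-type library 1 gave -0.17, and leaving out library 2 gave -0.94. The 2 wild-type libraries differed by 0.76 on the same scale, more than the groups did. Exons of Notch1 share 1068 bases with 0610009E02Rik on the other strand, and the sources used here do not say whether the libraries kept strand. That gene had between 0.348 and 1.49 TPM. Exons of Notch2 share 541 bases with Gm42820 on the same strand, which had at most 0.309 TPM. Those of Dll1 share 867 bases with A930024N18Rik on the other strand, which had at most 0.0893 TPM.

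Notch2 (ENSMUSG00000027878.11; chromosome 3, 98013527 to 98150361, plus strand), a receptor that overlaps with Notch1 in function in many tissues, measured 8.61 and 10.8 TPM in the wild-type pair of libraries against 11.4 and 12.9 TPM in the Stk40-/- pair. The 2 groups lay close together, with wild-type library 2 just below the nearer Stk40-/- library. The log2 fold change was 0.30 (SE 0.19, 95% interval -0.21 to 0.80, limma adjusted p = 0.611). Leaving out wild-type library 1 gave 0.15, and leaving out library 2 gave 0.45.

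Neither was the main receptor RNA of these cells. Notch3, which was not among the 10, averaged 62.9 ± 3.20 TPM in wild type against 74.2 ± 8.78 TPM without Stk40. It made up 60.8% and 69.9% of the summed TPM of the 4 receptor genes in wild type and 75.6% and 69.0% in Stk40-/- cells. Notch1 made up 28.3% and 17.4% in wild type and 12.6% and 15.4% in Stk40-/- cells. The sum over the 4 receptors was 99.6 and 93.2 TPM against 106 and 98.5 TPM, with overlapping groups. The receptor RNA as a whole thus did not separate by genotype. Of the shares only that of Notch1 did, while in TPM Notch2 and Notch3 also separated, both higher in Stk40-/- cells. Notch4, a receptor of blood vessels, was low in all libraries, at 0.969 to 2.44 TPM.

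**Figure D2:**
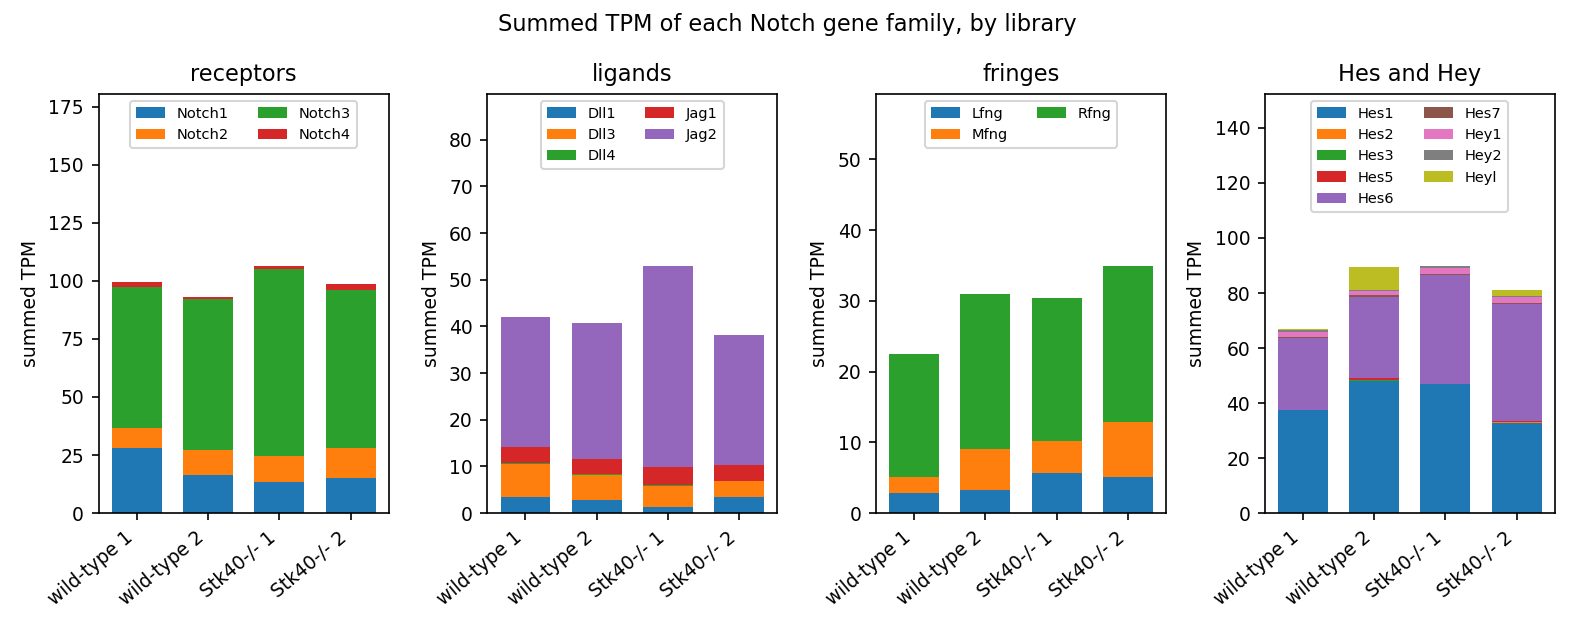
Summed TPM of the receptor, ligand, fringe, and Hes and Hey genes in each library, with 1 colour per gene and a separate linear axis from 0 for each family. Notch3 and Jag2 fill most of the receptor and ligand bars, Rfng most of the fringe bars, and Hes1 with Hes6 most of the last.

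Of the ligands, Dll3 lay lower in Stk40-/- cells without passing the threshold, and Dll1 did not separate the groups. Dll3 (ENSMUSG00000003436.11; chromosome 7, 28293553 to 28302238, minus strand) encodes a divergent ligand of the presomitic mesoderm that is found mostly inside the cell and does not activate receptors on neighbours. It measured 7.14 and 5.25 TPM in the wild-type pair of libraries against 4.36 and 3.36 TPM in the Stk40-/- pair. Both Stk40-/- libraries were below both wild-type libraries, and library 1 was the higher one in each group. The log2 fold change was -0.56 (SE 0.26, 95% interval -1.27 to 0.15, limma adjusted p = 0.515). Leaving out wild-type library 1 gave -0.37, and leaving out library 2 gave -0.75.

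Dll1 (ENSMUSG00000014773.13; chromosome 17, 15367354 to 15376872, minus strand) encodes a ligand that activates receptors on neighbouring cells and is needed for somites to keep their borders. It measured 3.47 and 2.86 TPM in the wild-type pair of libraries against 1.34 and 3.43 TPM in the Stk40-/- pair. Only Stk40-/- library 1 was low, and library 2 lay between the wild-type values. The log2 fold change was -0.37 (SE 0.42, 95% interval -1.51 to 0.77, limma adjusted p = 0.744), and it turned to 0.0925 without Stk40-/- library 1. Leaving out Stk40-/- library 2 gave -0.83, leaving out wild-type library 2 gave -0.47, both without overlap, and leaving out wild-type library 1 gave -0.26. The interval covers a marked fall of Dll1 as well as a rise.

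Delta ligands made up less of the ligand RNA than Jag2 alone. Jag2, a ligand of the Jagged type, measured 28.0 and 29.1 TPM in the wild-type pair of libraries against 43.1 and 28.0 TPM in the Stk40-/- pair, and made up 66.4% to 81.5% of the summed TPM of 5 ligand genes. Dll3 made up 17.0% and 12.9% of that sum in wild type and 8.25% and 8.79% in Stk40-/- cells. Jag1 averaged 3.29 ± 0.0678 and 3.58 ± 0.308 TPM, and Dll4, the ligand of sprouting vessels, did not exceed 0.306 TPM. The atypical ligand Dlk1 measured 7.18 and 29.6 TPM in the wild-type pair of libraries against 7.31 and 3.26 TPM in the Stk40-/- pair, so wild-type library 2 set its mean.

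Lfng lay higher in Stk40-/- cells, without passing the threshold. Lfng (ENSMUSG00000029570.5; chromosome 5, 140607320 to 140615545, plus strand) encodes lunatic fringe, which adds a sugar to Notch receptors in the Golgi, changes how they respond to Delta and Jagged ligands, and cycles in the presomitic mesoderm. It measured 2.88 and 3.22 TPM in the wild-type pair of libraries against 5.72 and 5.09 TPM in the Stk40-/- pair. The libraries of each group lay close together and the groups were well apart. Its mean was 1.78 times as high in Stk40-/- cells in TPM, and the log2 fold change was 0.66 (SE 0.23, 95% interval 0.04 to 1.28, limma adjusted p = 0.446). The range was 0.59 to 0.73 with 1 library left out at a time. Of all tested genes, 9.24% had a smaller p. On the deposited scale its log2 fold change was the furthest from 0 among the 8 tested genes, but after median-ratio scaling Notch1 and Dll3 (both -0.62) lay further than Lfng (0.61), and after quantile normalization Notch1 (-0.64) lay further than Lfng (0.63). It was also passed by Notch1 without wild-type library 2, by Dll3 without that library or Stk40-/- library 1, and by Dll1 without Stk40-/- library 2.

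The other fringe genes did not share this separation. Mfng measured 2.16 and 5.80 TPM in the wild-type pair of libraries against 4.48 and 7.82 TPM in the Stk40-/- pair, with overlapping groups. Rfng, the most abundant of the 3, averaged 19.6 ± 3.16 and 21.1 ± 1.23 TPM. Lfng made up 12.8% and 10.4% of the summed fringe TPM in wild type and 18.8% and 14.6% in Stk40-/- cells.

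Of the Hes and Hey genes, Hes6 lay higher in Stk40-/- cells, without passing the threshold, and Hes1 was not separated. Hes6 (ENSMUSG00000067071.8; chromosome 1, 91411483 to 91414038, minus strand), which encodes a relative of Hes1 that counters Hes1 activity and is linked to neural and muscle differentiation, measured 26.3 and 29.7 TPM in the wild-type pair of libraries against 39.4 and 42.2 TPM in the Stk40-/- pair. Replicates were close and the groups were apart by more than either differed within. The log2 fold change was 0.53 (SE 0.12, 95% interval 0.20 to 0.85, limma adjusted p = 0.364). This was the smallest p among the 8, and 2.76% of all tested genes had a smaller one. It ranged from 0.44 to 0.61 with 1 library left out.

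Hes1 (ENSMUSG00000022528.7; chromosome 16, 30064384 to 30067796, plus strand), a repressor that Notch induces in many tissues and that is itself expressed in embryonic stem cells, measured 37.5 and 48.2 TPM in the wild-type pair of libraries against 46.9 and 32.9 TPM in the Stk40-/- pair. The groups overlapped, with the highest value in a wild-type library and the lowest in a Stk40-/- library. The log2 fold change was -0.11 (SE 0.23, 95% interval -0.73 to 0.51, limma adjusted p = 0.875). It turned to 0.0655 without wild-type library 2 and to 0.14 without Stk40-/- library 2. Without wild-type library 1 it was -0.29 and without Stk40-/- library 1 it was -0.36, and in both of these cases Hes1 lay below wild type without overlap. Hes1 lies on chromosome 16, whose 400 tested protein-coding genes had a median log2 fold change of -0.18 with 72.8% negative, beside 39.9% over all tested protein-coding genes. The part of the chromosome in the value of Hes1 was not tested. The chromosomes of the other tested members had medians between 0.04 and 0.09. Hes6 made up 39.4% and 33.2% of the summed TPM of the 9 Hes and Hey genes in wild type and 43.9% and 52.0% in Stk40-/- cells.

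Hey1 (ENSMUSG00000040289.8; chromosome 3, 8663359 to 8667256, minus strand), a repressor known from heart and vessel development, measured 1.81 and 1.55 TPM in the wild-type pair of libraries against 2.24 and 2.23 TPM in the Stk40-/- pair. The groups did not overlap, but at this low level the log2 fold change of 0.27 had an SE of 0.32 (95% interval -0.59 to 1.14, limma adjusted p = 0.748). Its size depended on the pseudocount, at 0.42 with a pseudocount of 0.01 in place of 1.

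The core clock repressor lay near the bottom of the scale. Hes7 (ENSMUSG00000023781.2; chromosome 11, 69120404 to 69124055, plus strand), whose product represses its own gene and Lfng to keep the somite rhythm, measured 0.350 and 0.556 TPM in the wild-type pair of libraries against 0.523 and 0.578 TPM in the Stk40-/- pair. Hey2 (ENSMUSG00000019789.9; chromosome 10, 30832359 to 30842801, minus strand), a repressor of heart and artery development, measured 0.627 and 0.498 TPM in the wild-type pair of libraries against 0.524 and 0.361 TPM in the Stk40-/- pair. Both genes overlapped between the groups. When every gene above 0 TPM was tested their log2 fold changes were 0.10 (SE 0.18) for Hes7 and -0.12 (SE 0.18) for Hey2, a scale that understates changes of such low genes. TPM gives no depth, so the precision of values at this level is unknown. Exons of Hes7 share 234 bases with 9130213A22Rik on the other strand, which had at most 0.222 TPM.

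**Figure D3:**
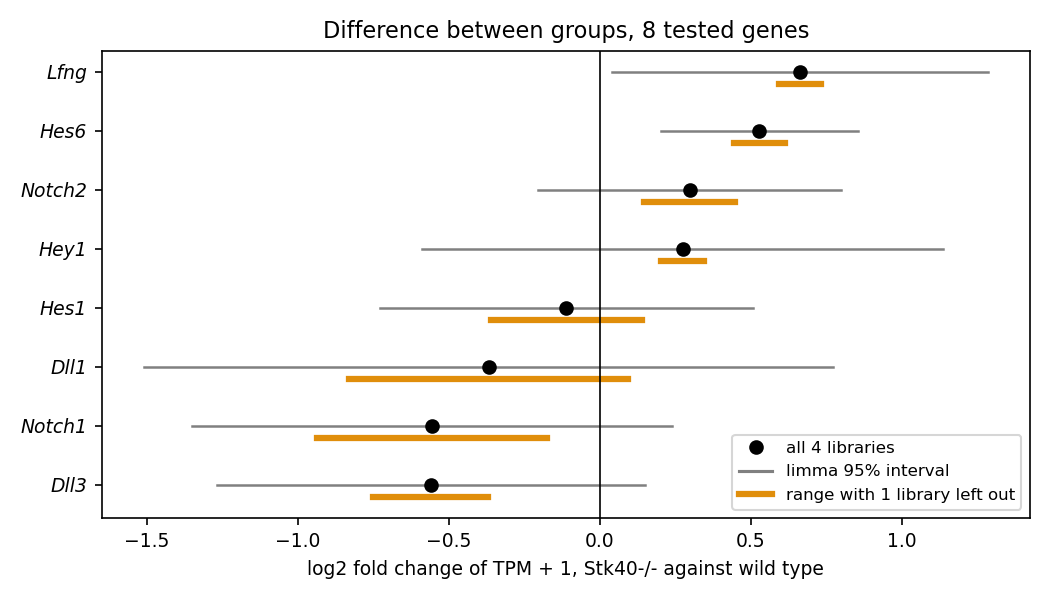
Log2 fold change of TPM + 1 in Stk40-/- cells against wild type for the 8 tested genes (points), with limma 95% intervals (grey) and the range of the value when 1 library is left out (orange). The intervals of Lfng and Hes6 lie above 0, those of the other 6 include 0, and the orange ranges of Hes1 and Dll1 cross 0. The intervals are not adjusted for the number of genes, and 11.0% of all tested genes had an unadjusted limma p under 0.05.

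Most of the remaining Notch pathway was expressed, and none of it was called. Of 53 other pathway genes 48 were tested, and 0 were called in either direction by limma. An unadjusted limma p under 0.05 was found for 9, beside 1730 (11.0%) of all 15739 genes tested. After median-ratio scaling it was found for 3, beside 1628 of all genes. After quantile normalization it was found for 3, beside 1618 of all genes. In 17 the Stk40-/- libraries lay above and in 6 below, without overlap. After median-ratio scaling of the libraries the counts were 11 and 11, and after quantile normalization 12 and 10, so the excess of higher genes went with the scaling. Over all genes the same scaling moved the count from 4321 above and 2609 below to 3255 and 3447. The median log2 fold change of the 48 was 0.07, the same as over all genes tested at 2 decimals.

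In the nuclear complex, which turns the cleaved receptor into a change of transcription, genes lay on both sides of wild type. Of 14 tested, 8 lay above and 3 below without overlap (57.1% and 21.4%), beside 27.5% and 16.6% over all genes tested. After median-ratio scaling 6 lay above and 3 below (42.9% and 21.4%), beside 20.7% and 21.9% over all genes. Rbpj, the DNA-binding partner of all Notch receptors, averaged 37.4 ± 0.816 TPM in wild type against 45.7 ± 1.68 TPM without Stk40 (log2 fold change 0.28, SE 0.10, limma adjusted p = 0.446). Ncor1, a corepressor, averaged 119 ± 8.76 and 164 ± 3.95 TPM, and Tle1, a corepressor that Hes proteins recruit, 16.8 ± 1.31 and 23.3 ± 2.58 TPM. Hdac1, a histone deacetylase that works with many corepressors, went the other way, with 172 ± 2.67 and 106 ± 1.60 TPM (log2 fold change -0.69, SE 0.07, limma adjusted p = 0.196). Hdac1 (129516104 to 129542713) lies on chromosome 4, as does Stk40 (126103957 to 126141029). The part of this position in the value of Hdac1 was not tested.

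Genes for making and cutting the receptors went both ways. Of 9 cleavage genes 2 lay above and 2 below (22.2% each, beside 27.5% above and 16.6% below over all genes tested), with a median log2 fold change of -0.0093. Among them Aph1a, a gamma-secretase subunit, averaged 48.0 ± 5.36 TPM in wild type against 37.1 ± 5.67 TPM without Stk40, and Psen2, another subunit, 14.2 ± 0.434 and 17.5 ± 3.48 TPM. Of 4 genes for receptor glycosylation all 4 overlapped, among them Poglut1, a glucosyltransferase, with 49.3 ± 4.36 and 44.3 ± 3.76 TPM. Of 12 genes for ligand uptake and receptor turnover 5 lay above (41.7%) and 1 below (8.33%), against the same shares over all genes, which move with the scaling as given for the nuclear complex. The ubiquitin ligase genes Nedd4 (598 ± 24.4 and 683 ± 13.3 TPM) and Itch (30.0 ± 0.446 and 37.8 ± 1.27 TPM), and Numbl (16.9 ± 0.477 and 21.9 ± 0.694 TPM), a relative of the Notch inhibitor Numb, had the smallest unadjusted p among them.

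Further targets gave no separation with all libraries kept. Nrarp, a feedback inhibitor that Notch induces, averaged 3.38 ± 0.176 TPM in wild type against 3.44 ± 0.377 TPM without Stk40. Hes5, the Notch target of neural progenitors, did not exceed 0.614 TPM. Heyl measured 0.148 and 8.36 TPM in the wild-type pair of libraries against 0 and 2.11 TPM in the Stk40-/- pair, so that replicates differed more than groups. Id3, an inhibitor of bHLH factors, was at 64.4 ± 19.3 and 41.7 ± 13.8 TPM, and the bHLH repressor gene Bhlhe40 at 46.1 ± 12.9 and 65.5 ± 27.9 TPM, both with overlapping groups. Without wild-type library 1, Id3 and Heyl in Stk40-/- cells lay below the remaining wild-type library and Bhlhe40 lay above it. Nrarp and Hes5 still overlapped.

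Most Wnt and Fgf genes of the clock lay lower in Stk40-/- cells, none past the threshold. Of 30 other clock and somite genes 17 were tested, and limma called 0 of them. Rspo3 and Msgn1 passed the filter through wild type alone, and Ripply1 through Stk40-/- cells alone. Among the 14 genes with at least 1 TPM in each group, 10 lay below both wild-type libraries and 4 overlapped, beside 16.1% below over all genes treated in this way. Of the 11 Wnt and Fgf genes among them 9 lay below, with a median log2 fold change of -0.54. Over the 17, 12 lay below and 0 above, beside 16.6% below over all genes tested. These counts were the same after median-ratio scaling (beside 21.9% below over all genes) and after quantile normalization (beside 20.1%). Without wild-type library 1, 12 lay below and 2 above, with a median of -0.36, beside 28.3% below and 44.1% above over all genes. The 17 also differed between the wild-type libraries, with a median of -0.52 from library 1 to library 2 on the log2 scale, close to their median of -0.54 between the groups. Fgf8, the growth factor of the presomitic gradient, measured 97.8 and 82.6 TPM in the wild-type pair of libraries against 51.8 and 42.3 TPM in the Stk40-/- pair (log2 fold change -0.93, SE 0.15, limma adjusted p = 0.279). Rspo3, a secreted enhancer of Wnt signalling, measured 11.3 and 3.24 TPM in the wild-type pair of libraries against 1.01 and 0.988 TPM in the Stk40-/- pair. Tcf15 had overlapping groups (20.3 ± 5.40 and 16.5 ± 6.42 TPM).

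**Figure D4:**
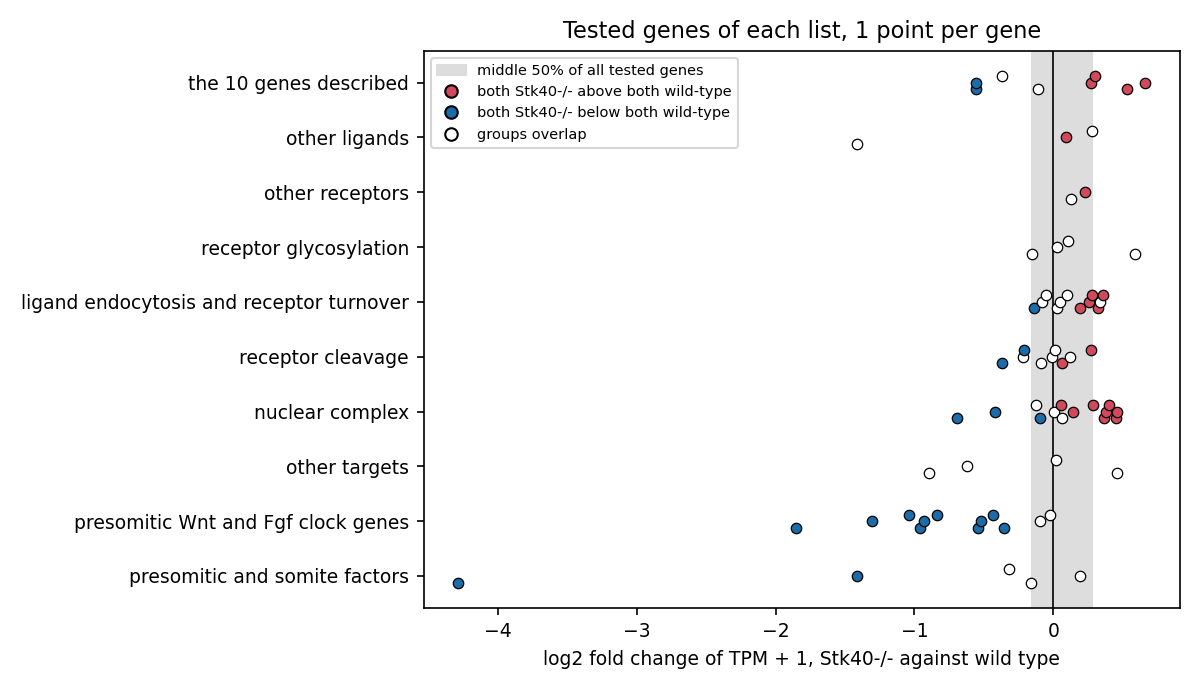
Log2 fold change of TPM + 1 in Stk40-/- cells against wild type for each tested gene, 1 row per list, with red for genes whose Stk40-/- libraries both lie above wild type, blue for both below and white for overlap. The grey band holds the middle 50% of all tested genes (-0.15 to 0.28). Presomitic Wnt and Fgf genes lie to the left, with 10 of 12 in blue (9 of 11 without Rspo3, which passed the filter through wild type alone), while the 10 genes described and the other Notch lists fall on both sides.

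Genes with the most similar profiles over the 4 libraries were found by the root mean square distance of mean-centred log2(TPM + 1) among genes with at least 5 TPM, for the 4 members with the largest differences on the deposited scale. With 4 libraries many genes match closely, and the distance is a description. Dll3 had as its nearest Gm29093 (0.016), the Wnt feedback target Axin2 (0.023) and the fatty acid enzyme gene Acsl5 (0.026). Axin2 measured 38.3 and 29.8 TPM in the wild-type pair of libraries against 25.1 and 21.0 TPM in the Stk40-/- pair, and so shared with Dll3 the higher value in library 1 of each group. Lfng was nearest to B4galt3 (0.011), a galactosyltransferase gene, Ulk2 (0.017) and Slc9a5 (0.023). Hes6 was nearest to the gap junction gene Gja1 (0.021), the homeobox gene Meis2 (0.022) and Spire1 (0.027). Notch1 was nearest to Brox (0.049), 4930405A21Rik (0.054) and Ift57 (0.056), all with wild-type library 1 far above the rest.

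Markers of other cells in which Notch genes are active were measured beside these results. Of 12 neural progenitor markers 6, among them Hes5, Neurog1, Neurog2 and Dcx, lay below 1 TPM in every library. The summed level of the 12, mostly from Nes and Sox3, was 76.5 and 85.0 TPM in wild type and 89.0 and 125 TPM in Stk40-/- cells, in the same direction as Hes6 and Lfng. Their part in those 2 differences was not tested. Of 11 endothelial markers 9 lay below 1 TPM in every library, Emcn was listed at 0 in all 4, and their sum was between 9.12 and 11.9 TPM. Feeder fibroblast markers summed to 25.5 and 52.2 TPM in wild type and to 22.1 and 19.2 TPM in Stk40-/- cells, and 4 of the 12 (Prrx1, Fap, Postn and Lum) were below 1 TPM in every library. Others were present. Col1a1, a collagen gene of fibroblasts, measured 6.98 and 7.29 TPM in the wild-type pair of libraries against 3.96 and 3.74 TPM in the Stk40-/- pair, Thy1 ranged from 7.28 to 13.1 TPM, and S100a4 measured 16.7 TPM in wild-type library 2 and was listed at 0 in the other 3. These genes were named after their values were seen, and the part of such cells in the differences above was not tested. In bulk RNA, fewer cells of a type and less RNA per cell cannot be told apart.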

How the data were processed

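RNA sequencing of 2 wild-type and 2 Stk40-/- libraries was used, grouped by sample title. Per the labels, polyadenylated RNA was read as pairs of 100 or 150 bases on one of a pair of instruments, and the sources used here do not say which library had which, so no batch term could be fitted. The authors deposited values as TPM, per the file headers, in columns that each sum to 1000000. The tools listed, per the submitters' processing notes, are CASAVA 1.7 and Salmon 0.8.2, and the build listed is hg38, which is human, while the IDs are mouse. All per-sample columns were used.

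Positions came from GENCODE vM21 (GRCm38), matched by ID without version (51633 of 51826). The tests, on log2(TPM + 1) of genes whose mean reached 1 TPM, used limma 3.58.1 under R 4.3.3 (intensity trend, no replicate block, two-sided, Benjamini-Hochberg over 15739 genes, threshold 0.05). An exact permutation test of 2 against 2 libraries cannot give a p below 0.333. On simulated data the procedure was checked only for returning the mean shifts put in. That check does not show how often a true difference would be called with 2 against 2 libraries. Groups do not overlap where both libraries of one lie beyond both of the other. The members, lists, tests and rule for named genes were chosen with earlier results of these data known. The rule names all members, Stk40, up to 3 genes of each list with the smallest unadjusted p, and a fixed set of further pathway and clock genes. Not every gene so named is reported here. Family sums, and counts over genes with 1 TPM in each group, were added after the values were seen.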

Additional observations from a re-analysis of the deposited data

How the results depend on the processing

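Under all 13 alternatives (pseudocounts of 0.1 and 0.01, filters at a mean above 0 and of at least 5 TPM, median-ratio scaling, quantile normalization, removal of mitochondrial and ribosomal protein genes, no intensity trend, the replicate block, and each library left out) limma called 0 genes, with a smallest adjusted p between 0.0695 and 0.319. Notch1, Notch2, Dll3, Lfng, Hes6 and Hey1 kept their direction in every alternative that tested them. An unadjusted limma p under 0.05 was found for 2 of the 8 tested members, beside 1730 of all 15739 genes. It was found for 1 member after median-ratio scaling (1628 of all genes) and for 1 with the replicate block (2118). It was found for 1 of 10 with all genes above 0 TPM (2229 of 27561) and for 1 of 5 at a mean of at least 5 TPM (1422 of 10897). Leaving out 1 library gave -0.83 to 0.0925 for Dll1 and -0.36 to 0.14 for Hes1, which changed sign without Stk40-/- library 1 (0.0925) for Dll1, and without wild-type library 2 (0.0655) or Stk40-/- library 2 (0.14) for Hes1. The median log2 fold change of the tested members, 0.08, was -0.0069 with all genes above 0 TPM, -0.11 at a mean of at least 5 TPM (5 members tested, of which 2 lay above without overlap), 0.0271 after median-ratio scaling, 0.0225 after quantile normalization, and -0.014 to 0.18 with 1 library left out. The replicate numbers are shared by the groups, but no label says that they pair the libraries. Deviations of same-numbered libraries had a correlation of 0.089 over genes, which cannot settle whether they are paired. With the replicate block 0 genes were called (smallest adjusted p = 0.262). Neither the block nor the intensity trend can change a fold change in this design, so these fits bear on p alone. With a pseudocount of 0.01 in place of 1, low genes lay further from 0, at 0.42 for Hey1, -0.55 for Dll1 and 0.83 for Lfng. Depth is unknown from TPM, which limits what can be said of Hes7, Hey2 and Hey1.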
